A study of Mus musculus with 10 samples.

Results

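Lsm1 to Lsm8, the genes of the LSM ring proteins, were 8 of the 45232 gene entries measured, and all 8 were found in the table by their Ensembl identifiers. They were chosen with results of these libraries known, because Lsm3 and Lsm5 were higher in Lin37 knockout than in rescue cells and were not among the up-regulated genes listed by the study. The difference between KO and rescue is therefore given for Lsm3 and Lsm5 as a description with no test, and the question put to the data was whether the 6 remaining ring genes, Lsm1, Lsm2, Lsm4, Lsm6, Lsm7 and Lsm8, were also higher. One of these 6, Lsm2, is on the study's own list, which was drawn from the same libraries, so its result is not independent of that list.

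RNA came from NIH3T3, an immortalized line of mouse fibroblasts, kept for 60 h in medium with 0% serum, and the labels place every library in G0. The paper reports slightly more S and G2/M phase cells after starvation when Lin37 was absent or mutated. The phases held by these cultures were not analysed here. All libraries, rescue included, came from cells with a CRISPR/Cas9 knockout of Lin37. Clone 411-27 was cut at exon 4 of the gene and clone 632-2 at exon 6, and each is a line grown from a single cell, so each mutation was represented by 1 line. Knockout (KO) cells carried an episome with a doxycycline-inducible luciferase gene, and rescue cells carried the same kind of episome with wild-type Lin37. Rescue cells are thus knockout cells that re-express Lin37, and unedited cells were not analysed here. The exon 4 clone had 2 libraries of each genotype. The exon 6 clone had 3 of each, of which replicate 3 is a technical replicate of replicate 2 and was averaged with it, leaving 4 KO and 4 rescue replicates.

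LSM proteins assemble into closed rings that bind short uridine-rich stretches at the 3′ ends of RNA. Lsm2, Lsm3, Lsm4, Lsm5, Lsm6 and Lsm7 are common to both rings. Lsm1 completes the cytoplasmic ring, which binds deadenylated mRNA together with Pat1 proteins and promotes removal of the cap. Lsm8 completes the nuclear ring, which binds the tail of U6 small nuclear RNA and keeps it available for the spliceosome. Lin37 is a subunit of the MuvB core of DREAM, a complex that represses cell cycle genes in resting cells and reaches promoters through E2F sites and cell cycle genes homology region (CHR) elements.

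Promoter sequences are shown because Lin37, the subunit missing in KO cells, belongs to a complex that binds such elements. RefSeq promoters on GRCm38.p6, from 250 bases before to 50 bases after each start, matched 6 of the 8 genes in 8 windows, with 2 windows each for Lsm2 and Lsm7. The promoters of Lsm1 and Lsm4 were not analysed here. Both strands were searched for the E2F letters TTNNCGC, with CC, CG, GC or GG in place of NN, which 9.57% of 32851 promoters held, for the CHR letters TTTGAA and their variant TTCGAA, held by 19.2%, and for CCAAT, held by 37.4%. TTCGAA reads the same on both strands. These searches are descriptions of letters, and binding was not measured. Lsm3 held 3 matches, with E2F letters at 81 and 14 bases before its RefSeq start and CHR letters 16 bases after it. That start lies inside the longer GENCODE gene. In the stretches of 30 bases below, 5′ to 3′ on the strand of the gene, capitals mark the matched letters.
Lsm3, E2F letters, chr6:91515943-91515972, plus strand: aaactacgaggGCGCGAAgggacaaaaata
Lsm3, E2F letters, chr6:91516010-91516039, plus strand: ctgagttcctgTTCCCGCgagaggtggaaa
Lsm3, CHR letters, chr6:91516039-91516068, plus strand: agggcgcagcgTTTGAAacatggcggacga
Lsm5, E2F letters, chr6:56704884-56704913, minus strand: ctggtcttccgGCGGCAAattatctctgaa
Lsm8, E2F letters, chr6:18848632-18848661, plus strand: ttcgccagcggGCGCGAAgctgtccgggtt
Lsm2, CHR letters, chr17:34982123-34982152, plus strand: gcggcgggcggTTCGAAccgtgcgggcgtg

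The E2F letters of Lsm5 lay 203 bases before its start and those of Lsm8 9 bases after its start. The CHR letters of Lsm2 lay 5 bases after the start of its second, downstream window. CCAAT letters lay 159 bases before the start in the first window of Lsm2, 93 bases before that of Lsm5 and 6 bases after that of Lsm6. No E2F or CHR letters were found in the windows of Lsm6 and Lsm7, which says only that these letters were not in those windows. For the 2 genes that the values below turn on besides Lsm3, the stretch from 250 to 21 bases before the start is given in full, with the E2F letters of Lsm5 in capitals. That of Lsm2 held neither E2F nor CHR letters.
Lsm2, chr17:34981604-34981833, plus strand: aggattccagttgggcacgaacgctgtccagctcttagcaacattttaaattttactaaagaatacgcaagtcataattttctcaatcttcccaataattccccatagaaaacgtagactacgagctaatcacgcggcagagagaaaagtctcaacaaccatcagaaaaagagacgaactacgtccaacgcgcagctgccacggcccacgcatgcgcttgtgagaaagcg
Lsm5, chr6:56704720-56704949, minus strand: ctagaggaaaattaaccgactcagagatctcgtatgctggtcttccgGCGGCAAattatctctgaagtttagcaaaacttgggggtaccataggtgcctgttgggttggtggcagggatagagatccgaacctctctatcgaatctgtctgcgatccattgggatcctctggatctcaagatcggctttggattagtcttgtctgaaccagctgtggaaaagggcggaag

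Values are RPKM (read numbers relative to the length of the gene and the size of the library) as deposited, divided by a scaling factor per library that ranged from 0.324 to 2.7. Every KO library had a higher factor than the rescue library of the same clone and number, so rescaling lowered KO relative to rescue. Lin37 RNA was lower in KO than in rescue by 2.25 on the log2 scale (SE 0.17, adjusted p = 0.000293, limma). Within a clone, KO and rescue share the same edited Lin37 gene, and only the rescue episome carries wild-type Lin37. The value is therefore not a measure of RNA lost from the edited gene. Reads of the episome and of the edited gene were not separated. If the commonest step between low values stands for 1 read, the libraries held 21900000 to 91100000 reads. Only 35% to 43.3% of low values were whole multiples of that step, within 0.05 of a read, so read numbers are estimates and no counting error is given. All 8 fibroblast marker genes reached 1 RPKM on average, and none of the 6 haematopoietic, 4 endothelial, 5 epithelial or 5 muscle markers did.

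Among the ring genes, Lsm4 had the highest level in rescue cells, 5.31 ± 1.24 RPKM (SD, n = 4), above 90.6% of the 16866 genes tested. Lsm2 followed at 1.03 ± 0.0682 RPKM, Lsm3 at 0.93 ± 0.326, Lsm8 at 0.762 ± 0.18, Lsm7 at 0.621 ± 0.32, Lsm1 at 0.416 ± 0.0488, Lsm6 at 0.229 ± 0.0241 and Lsm5 at 0.0721 ± 0.0165 RPKM (SD, n = 4 each). Subunits that share a ring thus differed widely in RNA level per length. In rescue cells, the ranges of neighbours in this order did not overlap between Lsm4 and Lsm2, between Lsm1 and Lsm6, and between Lsm6 and Lsm5. From Lsm2 down to Lsm1 each gene overlapped the next, so the order of these neighbours is not settled by the spread. Lsm1, at most 0.449 RPKM, still lay below every rescue replicate of Lsm2, Lsm3 and Lsm8. The order of the means was the same in KO cells, where Lsm1, Lsm6 and Lsm5, at 0.384 ± 0.0955, 0.353 ± 0.0721 and 0.349 ± 0.0215 RPKM (SD, n = 4), had overlapping ranges. These levels count each gene by its own entry, but Lsm5, Lsm6 and Lsm7 share sequence with processed pseudogenes (below). Combined with those copies, rescue means were 1.64 ± 0.185 RPKM for Lsm7, 0.414 ± 0.117 for Lsm5 and 0.335 ± 0.0227 for Lsm6 (SD, n = 4). Lsm7 then lay above Lsm2 without overlap. Lsm5 was no longer lowest, and its range overlapped that of Lsm6. The order thus depends on how copies are counted.

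**Figure D1:**
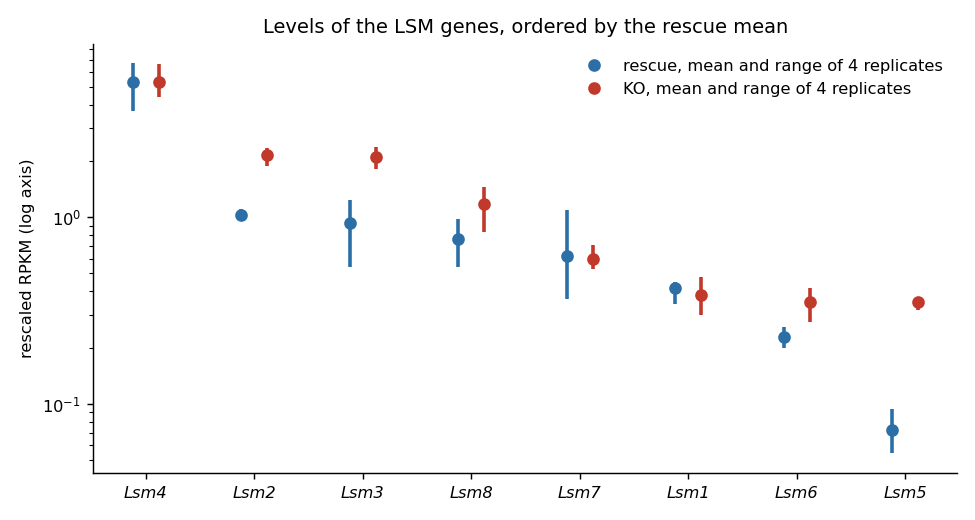
Mean level of each LSM gene in rescaled RPKM on a log axis, in rescue (blue) and KO (red) cells, with bars from the lowest to the highest of 4 replicates. Genes are ordered by the rescue mean, from Lsm4 at 5.31 to Lsm5 at 0.0721 RPKM. The rescue and KO bars do not overlap for Lsm2, Lsm3, Lsm6 and Lsm5, of which Lsm3 and Lsm5 were chosen for this difference. Single libraries of Lsm6 overlapped. Of all genes tested, 3.11% were higher and 1.4% lower in every KO replicate.

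Lsm2, a subunit of both rings that lies on chromosome 17 from 34981862 to 34985891 on the plus strand (GRCm38, as are the gene positions that follow), was higher in KO cells of both clones. In the exon 4 clone it stood at 2.31 and 2.35 RPKM in KO and at 1.06 and 1.11 RPKM in rescue replicates. The KO libraries of the exon 6 clone read 2.11, 1.76 and 2.01 RPKM and its rescue libraries 1.01, 0.947 and 0.953 RPKM. Every KO library was above every rescue library. The means were 2.16 ± 0.214 and 1.03 ± 0.0682 RPKM (SD, n = 4), a ratio of 2.09. On log2(RPKM + 0.5), the scale of all tests here, which understates changes of genes at low levels, Lsm2 rose by 0.79 (SE 0.082, 95% interval 0.61 to 0.98, adjusted p = 0.00132, limma over both clones with clone as covariate). Over the 4 pairs of same-numbered cultures, the log2 differences ran from 0.72 to 0.85. In RNA from whole cultures, more cells expressing a gene and more RNA per cell cannot be told apart. The antisense gene Gm10501, which starts 74 bases from Lsm2, averaged 0.341 RPKM without and 0.225 RPKM with Lin37. Its log2 change was 0.20 (SE 0.238, adjusted p = 0.869, limma).

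Lsm3, on chromosome 6 from 91515928 to 91522625 on the plus strand, was one of the pair of genes the choice rests on. Its level was 1.82 and 2.15 RPKM in KO and 0.542 and 0.782 RPKM in rescue replicates of the exon 4 clone. The exon 6 clone gave 2.04, 2.4 and 2.36 RPKM without Lin37 against 1.24, 1.19 and 1.13 RPKM with it. KO libraries of the 2 clones lay close together, and rescue libraries of the exon 6 clone lay above those of the exon 4 clone. The group means were 2.1 ± 0.231 and 0.93 ± 0.326 RPKM (SD, n = 4), a ratio of 2.25, and the log2 difference was 0.89 (SE 0.126). By pair, the log2 difference was 1.15 and 1.04 in the exon 4 clone and 0.55 and 0.79 in the exon 6 clone.

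Lsm3 starts 40 bases from the oppositely directed Xpc, a DNA damage recognition gene, which averaged 0.96 RPKM without and 1.0 RPKM with Lin37. The log2 change of Xpc was -0.04 (SE 0.115, adjusted p = 0.95, limma). The non-coding gene AC161456.1 overlaps Lsm3 on the same strand, where 5.38% of the stretches of 31 bases in the Lsm3 exons are shared, and it was not analysed here.

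Lsm5 lies on chromosome 6 from 56701063 to 56704710 on the minus strand. Counted by its own entry, it had the lowest level of the 8 genes and the largest ratio between the groups. It read 0.366 and 0.318 RPKM in KO against 0.0541 and 0.0941 RPKM in rescue replicates of the exon 4 clone. In the exon 6 clone the KO libraries were at 0.349, 0.453 and 0.269 RPKM and the rescue libraries at 0.0708, 0.138 and 0.000529 RPKM. No rescue library reached the lowest KO library. On average it was at 0.349 ± 0.0215 RPKM without and 0.0721 ± 0.0165 RPKM with Lin37 (SD, n = 4), a ratio of 4.84, and the log2 difference was 0.57 (SE 0.0948). These levels rest on few reads, by estimate 9.8 to 21.4 in a KO library and at most 3.1 in a rescue library. Lsm5 passed the minimum mean of 0.1 RPKM only through the KO group, so that its entry into the fit was tied to the direction of its difference.

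**Figure D2:**
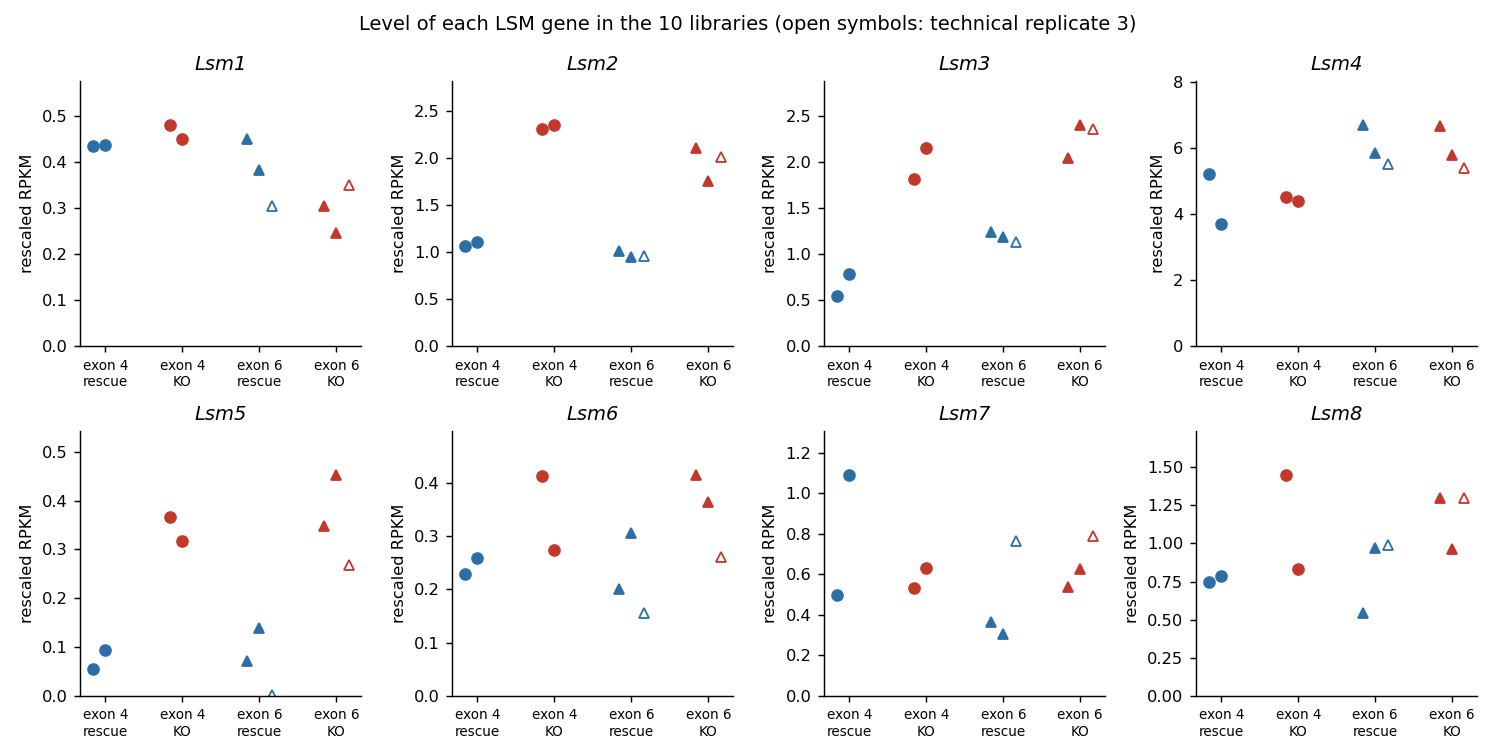
Level of each LSM gene in rescaled RPKM (vertical axes, each from 0) in the 10 libraries by clone and genotype, rescue in blue and KO in red, circles for the exon 4 and triangles for the exon 6 clone, with the technical replicates as open triangles. KO lies above rescue in every library for Lsm2, Lsm3 and Lsm5, whereas the groups of Lsm1, Lsm4 and Lsm7 overlap.

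Lsm4, the ring subunit with a long arginine- and glycine-rich tail, lies on chromosome 8 from 70673248 to 70678752 on the plus strand. It was at 4.52 and 4.4 RPKM in KO and at 5.19 and 3.7 RPKM in rescue replicates of the exon 4 clone. Levels in the exon 6 clone were 6.65, 5.78 and 5.39 RPKM for KO and 6.68, 5.83 and 5.5 RPKM for rescue libraries. The groups overlapped in both clones, with means of 5.29 ± 1.05 and 5.31 ± 1.24 RPKM (SD, n = 4). Its log2 change was 0.00 (SE 0.122, 95% interval -0.27 to 0.28, adjusted p = 0.995, limma), an interval that leaves out changes of the size measured for Lsm2.

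Lsm6, on chromosome 8 from 78804865 to 78821140 on the minus strand, was 0.413 and 0.273 RPKM in KO and 0.228 and 0.259 RPKM in rescue replicates of the exon 4 clone. The exon 6 clone gave 0.415, 0.364 and 0.26 RPKM in KO and 0.2, 0.305 and 0.156 RPKM in rescue libraries. The 4 KO replicates lay above the 4 rescue replicates once technical replicates were averaged, at 0.353 ± 0.0721 and 0.229 ± 0.0241 RPKM (SD, n = 4, ratio 1.54), but single libraries overlapped. The log2 change of Lsm6 was 0.22 (SE 0.103, 95% interval -0.01 to 0.46, adjusted p = 0.597, limma) and did not pass the test. By pair, the log2 difference of Lsm6 was 0.33 and 0.03 in the exon 4 clone and 0.39 and 0.15 in the exon 6 clone.

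Lsm7, on chromosome 10 from 80852821 to 80855209 on the minus strand, had the largest standard error of the 8 genes in the fit over both clones. The exon 4 clone gave 0.53 and 0.628 RPKM in KO and 0.498 and 1.09 RPKM in rescue replicates. The exon 6 clone gave 0.536, 0.626 and 0.786 RPKM in KO and 0.363, 0.303 and 0.765 RPKM in rescue libraries. Rescue cells spanned the whole KO range, and the technical replicates of the exon 6 rescue, at 0.303 and 0.765 RPKM, differed by 0.66 on the log2 scale, the largest such difference among the 8 genes. Group means were 0.6 ± 0.084 and 0.621 ± 0.32 RPKM (SD, n = 4). The log2 change was 0.01 (SE 0.173, 95% interval -0.39 to 0.40, adjusted p = 0.994, limma), so that a moderate change in either direction was not detectable. Its divergent neighbour Sppl2b, whose start is 66 bases away, changed by -0.16 on the log2 scale (SE 0.195, adjusted p = 0.87, limma).

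Lsm1, which makes the ring cytoplasmic, lies on chromosome 8 from 25785288 to 25803975 on the plus strand. Its values were 0.48 and 0.451 RPKM in KO and 0.435 and 0.437 RPKM in rescue replicates of the exon 4 clone. In the exon 6 clone they were 0.305, 0.246 and 0.35 RPKM in KO and 0.449, 0.383 and 0.304 RPKM in rescue libraries. KO was slightly above rescue in the exon 4 clone and mostly below it in the exon 6 clone. The means were 0.384 ± 0.0955 and 0.416 ± 0.0488 RPKM (SD, n = 4), with a log2 change of -0.06 (SE 0.0956, 95% interval -0.27 to 0.16, adjusted p = 0.911, limma). Its divergent neighbour Bag4, whose start is 1 base away, changed by 0.05 on the log2 scale (SE 0.125, adjusted p = 0.938, limma).

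Lsm8, which makes the ring nuclear, lies on chromosome 6 from 18848579 to 18855751 on the plus strand. It was at 1.45 and 0.83 RPKM in KO and at 0.747 and 0.783 RPKM in rescue replicates of the exon 4 clone. The exon 6 clone gave 1.3, 0.963 and 1.3 RPKM in KO and 0.54, 0.97 and 0.987 RPKM in rescue libraries. Replicate 1 of each clone carried most of the difference between KO and rescue, with log2 differences of 0.65 and 0.79 against 0.05 and 0.14 in replicate 2. The means were 1.18 ± 0.266 and 0.762 ± 0.18 RPKM (SD, n = 4, ratio 1.55). The log2 change was 0.41 (SE 0.153, 95% interval 0.06 to 0.76), with an unadjusted p of 0.0272 and an adjusted p of 0.448 (limma), so Lsm8 did not pass the test.

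**Figure D3:**
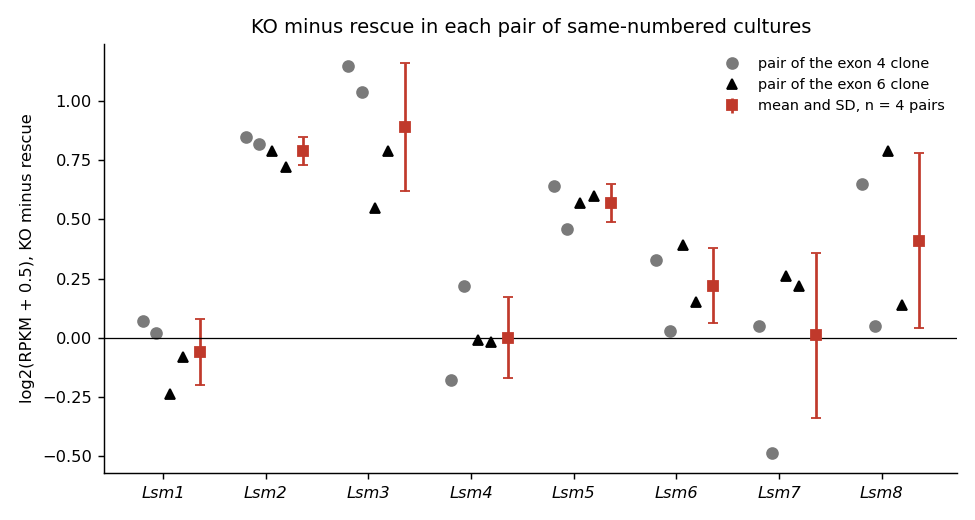
KO minus rescue on log2(RPKM + 0.5) for each LSM gene in the 4 pairs of same-numbered cultures of a clone, grey circles for the exon 4 and black triangles for the exon 6 clone, with the mean and SD of the 4 pairs as a red square and bar. The 4 pairs of Lsm2 lie between 0.72 and 0.85, while those of Lsm7 lie on both sides of 0.

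Of the 6 partners of Lsm3 and Lsm5, 1 (Lsm2) was called higher in KO over both clones, and none was called lower. The background in the same fit was 1.69% of 16866 genes called, 271 of them higher (1.61%) and 14 lower (0.083%), and the median log2 change of all genes tested was -0.03. Without overlap between replicates, Lsm2 and Lsm6 were higher in KO among the 6 partners, against 3.11% of all genes tested, and no partner was lower in every KO replicate, against 1.4%. Lsm3 and Lsm5 also had no overlap, which their choice fixes. Neither the subunit particular to the cytoplasmic ring nor the one particular to the nuclear ring passed the test. The ratio of Lsm8 to Lsm1 was 3.23 ± 1.06 in KO and 1.89 ± 0.691 in rescue cells (SD, n = 4), with overlapping ranges of 1.84 to 4.25 and 1.2 to 2.85.

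Within a clone, each comparison rested on 2 KO against 2 rescue replicates. In the exon 4 clone alone, no gene of 18751 was called by limma, with 768 at an unadjusted p under 0.05, and the share of all genes called was 0%. Lsm2 differed there by 0.84 on the log2 scale (SE 0.17, adjusted p = 0.517, limma). In the exon 6 clone alone, 1.3% of 15301 genes were called, 189 higher (1.24%) and 10 lower (0.0654%), 1811 had an unadjusted p under 0.05, and none of the 6 partners was called, with 1 (Lsm2) at an unadjusted p under 0.05. Lsm2 missed the threshold there, at 0.75 (SE 0.109, adjusted p = 0.0576, limma, and 0.0837 with the replicate number as a block). With the technical replicates taken as separate libraries, the adjusted p of Lsm2 was 0.0127 (limma). That fit counts libraries of the same culture as independent, which overstates the number of replicates, so it is not read as a pass.

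The difference between KO and rescue was compared between the clones by an interaction term. It is built from the same KO and rescue values for which Lsm3 and Lsm5 were chosen, so Lsm3 gets no test here. None of the 16866 genes was called by limma (0%), with 685 at an unadjusted p under 0.05. For Lsm3, as a description, the log2 difference was smaller in the exon 6 clone by 0.43 (95% interval of the interaction -0.94 to 0.08). Lsm7 had the other large value, 0.47 (95% interval -0.30 to 1.23, adjusted p = 0.997, limma), and the interval for Lsm2 was -0.48 to 0.31. These intervals are wide, so the data do not show whether the clones respond alike.

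Averaged over genotypes, the 2 clones themselves differed in 2286 of 16866 genes (13.6%), of which 1154 were higher (6.84%) and 1132 lower (6.71%) in the exon 6 clone. None of the 8 ring genes was among them, and 2 of the 8 (Lsm3 and Lsm4) had an unadjusted p under 0.05 (limma), against 30.9% of all genes. Lsm4 came nearest, higher by 0.43 on the log2 scale in the exon 6 clone (SE 0.122, 95% interval 0.15 to 0.71, adjusted p = 0.0521, limma). Lsm3 was higher by 0.34 (SE 0.126, adjusted p = 0.11, limma).

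Parts of Lsm5, Lsm6 and Lsm7 are repeated in processed pseudogenes, copies of the mRNA inserted elsewhere in the genome, and reads from such parts could be counted for either entry. Of the 31-base stretches in the exons of Lsm5, 22.1% also occur in Gm7846 on chromosome 1 and 18.7% in Gm10074 on chromosome 17. These make up 79.5% of Gm7846 and 74.9% of Gm10074. By estimated reads, the entry of Lsm5 itself held 26.7% to 38% of the reads of the 3 entries in the KO libraries and 0.153% to 36.4% in the rescue libraries.

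Gm10074 was at 1.39 and 1.33 RPKM in KO and 0.743 and 0.602 RPKM in rescue replicates of the exon 4 clone, and at 1.09, 1.16 and 0.891 RPKM in KO and 0.407, 0.0876 and 0.85 RPKM in rescue libraries of the exon 6 clone. Its log2 difference was 0.70 (SE 0.0864). Gm7846 averaged 1.13 ± 0.499 RPKM without and 0.485 ± 0.221 RPKM with Lin37 (SD, n = 4), with overlapping ranges and a log2 difference of 0.70 (SE 0.26). Since both share most of their sequence with a gene chosen on this contrast, no test is given for them. When the reads of the 3 entries were combined over the length of Lsm5, a setting added after the values were seen, KO was 1.12 ± 0.133 RPKM and rescue 0.414 ± 0.117 RPKM (SD, n = 4). The ratio of Lsm5 was then 2.7 in place of 4.84, and the ranges of 0.963 to 1.26 and 0.286 to 0.558 RPKM did not overlap.

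Lsm6 shares a part with Gm12571 on chromosome 11, which makes up 57.7% of that copy. Gm12571 averaged 2.84 ± 0.778 RPKM without and 1.77 ± 0.581 RPKM with Lin37 (SD, n = 4), with a log2 change of 0.57 (SE 0.172, adjusted p = 0.264, limma). A second copy of a part of Lsm6, the pseudogene Gm2531, averaged 0.112 RPKM without and 0.246 RPKM with Lin37, the other direction (log2 change -0.30, adjusted p = 0.575, limma), and was not among the processed pseudogenes combined here. Lsm6 combined with Gm12571 had a ratio of 1.56 and an adjusted p of 0.295 (limma). Gm10146 on chromosome 10 is contained in Lsm7 for 100% of its stretches, and averaged 4.53 ± 1.11 RPKM without and 5.2 ± 1.03 RPKM with Lin37 (SD, n = 4, adjusted p = 0.817, limma). Combined with its copies, Lsm7 differed by -0.10 on the log2 scale (95% interval -0.37 to 0.17, adjusted p = 0.861, limma). Counting the copies in changed no call among these partners. Which entry the reads came from was not tested.

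**Figure D4:**
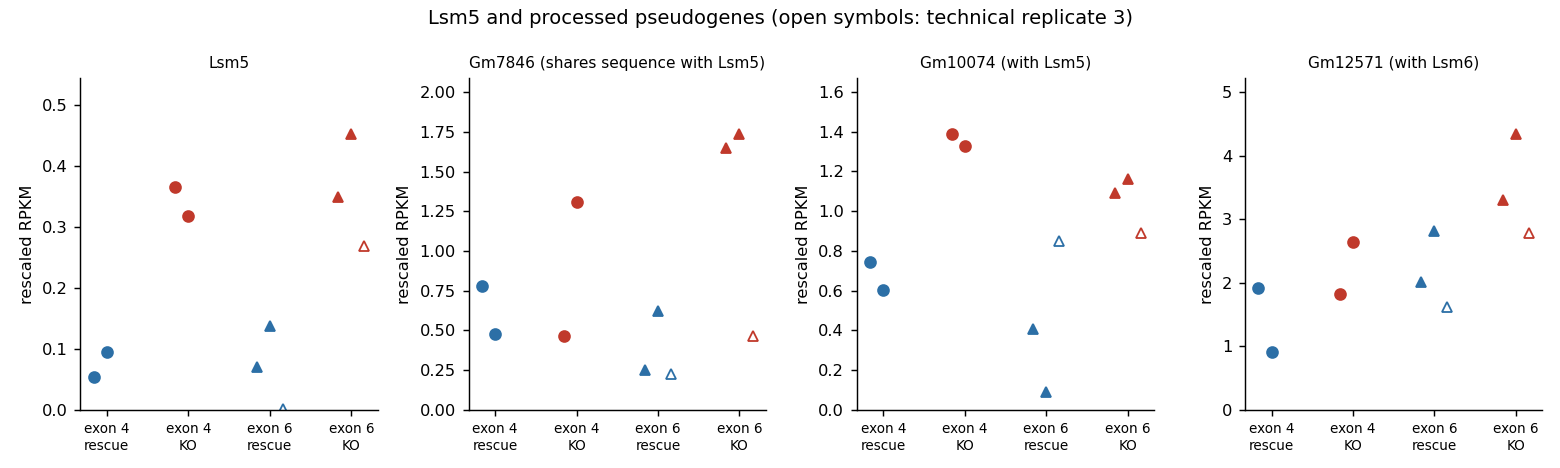
Rescaled RPKM (vertical axes, each from 0) of Lsm5, of Gm7846 and Gm10074, which share sequence with it, and of Gm12571, which shares sequence with Lsm6, in the 10 libraries, rescue in blue and KO in red, circles for the exon 4 and triangles for the exon 6 clone, open triangles for technical replicates. Lsm5 stays at or below 0.138 RPKM in rescue libraries, and Gm7846 overlaps between KO and rescue.

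Genes of related function, assembly or domain, listed from textbook knowledge, were read in the same fit. They include the separate Sm ring and other proteins with an LSM domain, not only genes that act with the LSM rings. None of the 56 tested was called in either direction, against 1.61% higher and 0.083% lower of all genes. At an unadjusted p under 0.05 (limma) there were 6 of the 56 (10.7%), against 1482 of all 16866 genes (8.79%). Of all genes tested, 41% had a log2 change above 0, the share beside which the counts above 0 of each list stand. Among 8 Sm proteins, which form the related ring of the other spliceosomal RNAs, the median log2 change was -0.06, with 4 above 0. Snrpe had the lowest adjusted p, with a log2 change of 0.37 (SE 0.206, adjusted p = 0.681, limma). For the 21 measured proteins of U6 and of the U4/U6.U5 tri-snRNP the median was 0.05, with 14 above 0. Prpf4, a U4/U6 protein, was nearest to the threshold at 0.32 (SE 0.0865, adjusted p = 0.175, limma). No gene of this list passed the test.

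In the cytoplasmic pathway, 9 of 10 genes for decapping and 5′ to 3′ mRNA decay passed the minimum level, with a median log2 change of -0.07 and 3 above 0. The lowest adjusted p was that of Ddx6, a helicase that activates decapping, at -0.17 (SE 0.0933, adjusted p = 0.686, limma). The 12 genes for assembly of Sm and LSM rings had a median of 0.04, with 7 above 0. Ddx20, a helicase of the SMN complex, had a log2 change of 0.45 (SE 0.14, adjusted p = 0.288, limma). The 6 other LSM-domain genes had a median of 0.12, with 4 above 0, led by Lsm11 of the U7 particle for histone mRNA ends at 0.28 (SE 0.118, adjusted p = 0.542, limma).

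**Figure D5:**
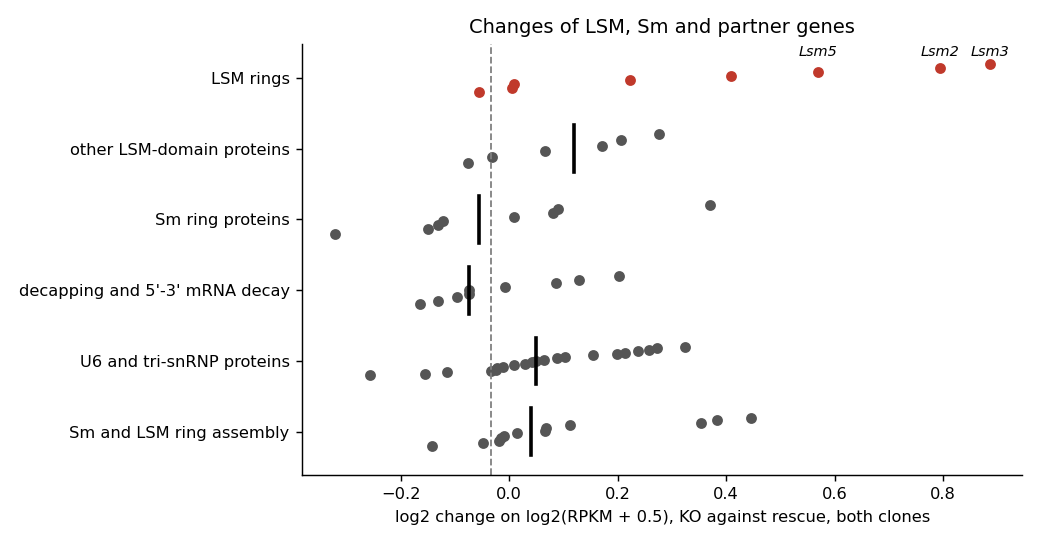
Log2 change on log2(RPKM + 0.5) of KO against rescue over both clones (horizontal axis) for the 8 LSM ring genes in red and for 5 lists of related genes in grey, 1 point per gene. The median of each list of related genes is a black bar and the median of all genes tested, -0.03, a dashed line. Lsm2, Lsm3 and Lsm5 lie to the right of every gene in grey, and Lsm3 and Lsm5 were chosen for their difference between KO and rescue.

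The profile of each ring gene over the 8 replicates, centred on its mean, was compared with 7550 genes of at least 1 RPKM by root mean square distance on the log2 scale. Nearest to Lsm3 were Mcm4 (distance 0.105), Mcm2 (0.174) and Gins4 (0.18), which encode parts of the replicative helicase. Nearest to Lsm2 were Rangap1 (0.109), Cd9 (0.112) and Pcna-ps2 (0.119), and nearest to Lsm5 were Opa3 (0.0666), Sae1 (0.0803) and Hirip3 (0.0937). For Lsm8 they were Usp39, a tri-snRNP protein (0.132), Sat1 (0.136) and Foxc1 (0.136). The profiles include the difference between KO and rescue for which Lsm3 and Lsm5 were chosen, so that their likeness to other genes higher in KO follows from the choice, and distances of genes at low levels depend on the pseudocount of 0.5.

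Lsm1 lay nearest to Gm11405 (0.0382), Poglut1 (0.0393) and Ubb (0.0458), and Lsm4 nearest to Gm10036 (0.0573), Cc2d1a (0.0636) and Gdf11 (0.0639). Lsm6 lay nearest to Ak6 (0.0648), Eps8 (0.0666) and Snd1 (0.0754), and Lsm7 nearest to Ppp1r15b (0.0769), Zfp365 (0.0859) and Mettl9 (0.0889). Profiles with no large difference between the groups, such as those of Lsm1 and Lsm4, lie close to many genes.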

How the data were processed

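RNA was depleted of ribosomal RNA, fragmented and made into libraries with a Nugen Ovation Human FFPE kit. The authors clipped adapters with cutadapt, mapped the reads to mm10 with segemehl, counted them per gene with rnacounter against GENCODE vM5, and deposited RPKM values for 10 libraries. The library total and gene lengths behind them, and whether strand was used in counting, are not given in the sources used here. The authors' edgeR test needs counts and was not repeated.

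From the deposited RPKM, libraries were rescaled by median-of-ratios factors, computed over the 8523 genes that averaged at least 1 RPKM and were above 0 throughout. Names and exon lengths came from GENCODE M21, in which 44585 identifiers were found. Genes averaging 0.1 RPKM or more over a comparison's replicates were tested on log2(RPKM + 0.5) with limma 3.58.1 (lmFit, eBayes with a trend, R 4.3.3), two-sided, with Benjamini-Hochberg adjustment over all genes tested and a threshold of 0.05. The whole table was fitted, and all 8 ring genes passed the minimum in the fit over both clones. Technical replicates were averaged. Python 3.11.15 with pandas 2.3.3 and numpy 2.4.6 was used for values, sequences and distances. The fit was also run on simulated data, with changes set only in genes averaging at least 1 RPKM and noise independent between cultures. That run does not cover ring genes below this level or deviations shared by same-numbered replicates.

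Within a clone, the labels give KO and rescue replicates the same numbers. Over 7550 genes, deviations from the group means of replicates with 1 number correlated at 0.477 in the exon 4 and 0.36 in the exon 6 clone. The labels do not say whether they were grown together. A fit with clone and number as a block was run beside each comparison of KO with rescue.

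The members, the gene lists, the tests and the alternatives were chosen with earlier results of these data known. Named were the 8 ring genes, Lin37, from each list the genes called or else the one with the lowest adjusted p, and the 3 nearest profiles of each ring gene. The pseudogene copies and neighbouring genes were added later. The list entry Prpf24 was not matched to the table, and Patl2 was below the minimum.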

Additional observations from a re-analysis of the deposited data

Results flagged for a closer look

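Of 16 groups of 4 replicates (8 ring genes in KO and in rescue cells), 1 held a replicate far from the others. Lsm1 in replicate 2 of the exon 6 rescue, the mean of its technical replicates, was at 0.343 RPKM, and the gap to the nearest of the other rescue replicates was 0.87 of the range of the group, above the 95% critical value of Dixon's test for 4 values. Chance flags about 1 in 20 groups, so 1 of 16 is near what chance gives.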

How the results depend on the processing

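Over both clones, Lsm2 stayed called under all 19 alternatives run. Its log2 change was 0.64 to 1.57 and its adjusted p 0.00015 to 0.013 (limma). The lowest of these p came from taking technical replicates as separate libraries, which treats libraries of the same culture as independent. No other partner was called except under the RPKM as deposited, where the partners called were 2 (Lsm2, and Lsm8 at 1.14, adjusted p = 0.022, limma). With a minimum of 1 RPKM, Lsm1, Lsm6, Lsm7 and Lsm8 were not in the fit and could not be called. Without rescaling, the median log2 change of all genes moved to 0.64 over both clones and to 0.69 in the exon 6 clone, so calls on that scale are relative to this shift. There, 875 genes were called higher over both clones, and in the exon 6 clone 10040 higher, 47 lower and 5 partners, with Lsm4 reversed to 0.93 (adjusted p = 0.00801). The interaction called 7 genes higher on that scale, and between the clones 2484 were higher, 261 lower and 2 of the ring genes called. With no minimum level, the genes called higher were 155 over both clones, 0 in the exon 6 clone (0 lower), 55 in the interaction (5 lower) and 506 between the clones (496 lower). A minimum of 1 RPKM gave 93 higher over both clones, 67 higher in the exon 6 clone, 1 lower in the exon 4 clone and 1 ring gene between the clones (Lsm4, adjusted p = 0.0338). Scaling over short genes gave 1 lower in the exon 4 clone, leaving out the clone covariate 6 lower over both clones, and leaving out the genotype covariate 1 ring gene between the clones (Lsm4, adjusted p = 0.0414). With technical replicates as separate libraries, 1 partner (Lsm2) was called in the exon 6 clone and 2 ring genes (Lsm3, adjusted p = 0.0475, and Lsm4, adjusted p = 0.0321) between the clones. That fit overstates the number of independent replicates. The cause of these changes was not tested.

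With the replicate block, 276 genes were higher and 27 lower over both clones and 1 was lower in the exon 4 clone. Lsm2 kept its call over both clones (adjusted p = 0.00479, limma), and the block changed no other call of a ring gene or gene of the related lists.

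Leaving out each replicate in turn gave 174 to 265 genes higher and 4 to 16 lower over both clones, with Lsm2 called each time. It gave 0 to 69 higher and 0 to 3 lower in the exon 6 clone, where a group left with 1 replicate is assumed to vary like the other. Between the clones it gave 528 to 1244 higher, 483 to 1847 lower and 0 to 1 ring genes. The 1 was Lsm4 without replicate 1 of the exon 4 rescue (0.51, adjusted p = 0.037).

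The change of Lsm5 moved with the pseudocount, from 1.39 at 0.1 to 0.33 at 1, and its size on this scale should be read beside its level of at most 3.1 estimated reads per rescue library. The rescue means of Lsm1, Lsm2, Lsm5 and Lsm6 moved by more than their SD without rescaling, to 0.319, 0.807, 0.043 and 0.164 RPKM. The exon 4 and exon 6 mutations were each carried by 1 line, so between the clones the mutation and the line cannot be told apart.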
